A study of Rattus norvegicus with 33 samples.

Results

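The comparison described here sets the lumbar spinal dorsal horn (LDH) against brain in adult rats that had been injected with carrageenan, a seaweed polysaccharide that causes local inflammation, on postnatal day 12 (P12). For each of 232 probes the mean log ratio of the left and right LDH groups, weighted equally, was set against the mean log ratio of the brain group. It used 15 of the 33 arrays of the series, 5 from left LDH, 5 from right LDH and 5 from brain. All animals were male and adult (P60), and the treated pups had received 1 µl per g body weight of 0.25% carrageenan in saline, once, into the left hindpaw. Each array carried tissue of carrageenan-treated rats in its first channel and the same tissue of control rats in its second. The controls of both LDH groups and of 1 brain array were labelled as control and those of 4 brain arrays as intact. The labels do not say whether these names stand for different animals. If they do, a difference between LDH and those 4 brain arrays cannot be told apart from a difference between the controls. The study took data both at baseline and during an adult inflammation with complete Freund's adjuvant, and the labels do not say which arrays belong to which state, so a group may hold both. The labels do not tie arrays to animals, and a p-value here therefore covers the variation among these arrays, which may be technical.

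Each value is the log ratio of an array's channels, taken here to be in log2 units. Neither the base of the logarithm nor the direction of the ratio is stated in the sources used here. Carrageenan over control is the likely direction, because the carrageenan tissue is channel 1, and signs are given as deposited. A difference between tissues is thus a difference between log ratios, not between the amounts of RNA in cord and brain. In bulk tissue, fewer cells of a type and less RNA per cell cannot be told apart. The arrays held 0 probes for the lists of neuronal, astrocyte, oligodendrocyte, microglial and blood, regional identity and reference genes, so the labelled tissues could not be checked against markers.

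The dorsal horn is the first relay of pain signals from the skin. Sensory fibres release glutamate and peptides such as substance P and CGRP there, and local neurons that use GABA, glycine or enkephalin restrain the relay. Neurotrophins are secreted proteins that act through Trk receptors and the receptor p75NTR. Neurotrophin-3 (Ntf3) is known for supporting muscle-sensing and other neurons in development, and it is made in muscle, skin and parts of the central nervous system. The brain served in this series as a second tissue far from the injected paw.

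Array medians lay between 0 and 0.036, and the SD over the probes of an array ran from 0.326 (brain array 4) to 1.20 (LDH left array 3). A few arrays stood apart by a low mean correlation with the other arrays over probes, namely brain array 4 (r = 0.0798), LDH left array 4 (0.0843) and LDH left array 5 (0.0832). The median SD of a probe within a group was 0.63 in left LDH, 0.51 in right LDH and 0.40 in brain. Of the 232 probes, 205 carried 1 gene symbol (158 genes) and 27 were unnamed here.

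The log ratios of LDH and brain were mostly small, and for most probes the tissues could not be told apart at this precision. With limma and Benjamini-Hochberg adjustment over all 232 probes, 2 probes passed an adjusted p of 0.05, which is 0.862% of those tested. Ntf3 had a lower log ratio in LDH (1 probe, 0.431%), and a probe with no gene name, number 145, a higher one (1 probe, 0.431%). At an unadjusted p under 0.05 there were 25 probes (10.8%), 15 higher in LDH (6.47%) and 10 lower (4.31%), where 11.6 would be found on average if no probe differed. The count of calls was 19 with robust regression, 5 without LDH left arrays 4 and 5 and 0 with the exact permutation test. Brain array 4, with the lowest mean correlation (r = 0.0798), stayed in the fit without those 2 LDH arrays. Leaving out brain array 4 alone gave calls for Ntf3, probe 145 and Grin2d probe 173 in limma. No probe had LDH and brain arrays that did not overlap at all (0 of 232, 0%). Differences ran from -2.63 to 1.35 with a median of 0.045, and 133 were positive and 99 negative. Only 18 exceeded 1 in size and 1, that of Ntf3, exceeded 2. The median half-width of the 95% interval was 0.73, and for 103 probes the whole interval lay within 1 log unit of 0 on either side. Probes missing the threshold are therefore not shown to be alike in the tissues.

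Across the 232 probes the LDH and brain means correlated at Pearson's r = 0.505 and Spearman's rho = 0.389, given as a description because probes share arrays, dyes and print positions. Both means were positive for 91 probes and both negative for 64. LDH was positive and brain negative for 41, and the reverse held for 36. Single arrays correlated at a median r of 0.315 within a group (left LDH, right LDH or brain), 0.332 between left and right LDH and 0.188 between LDH and brain.

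**Figure D1:**
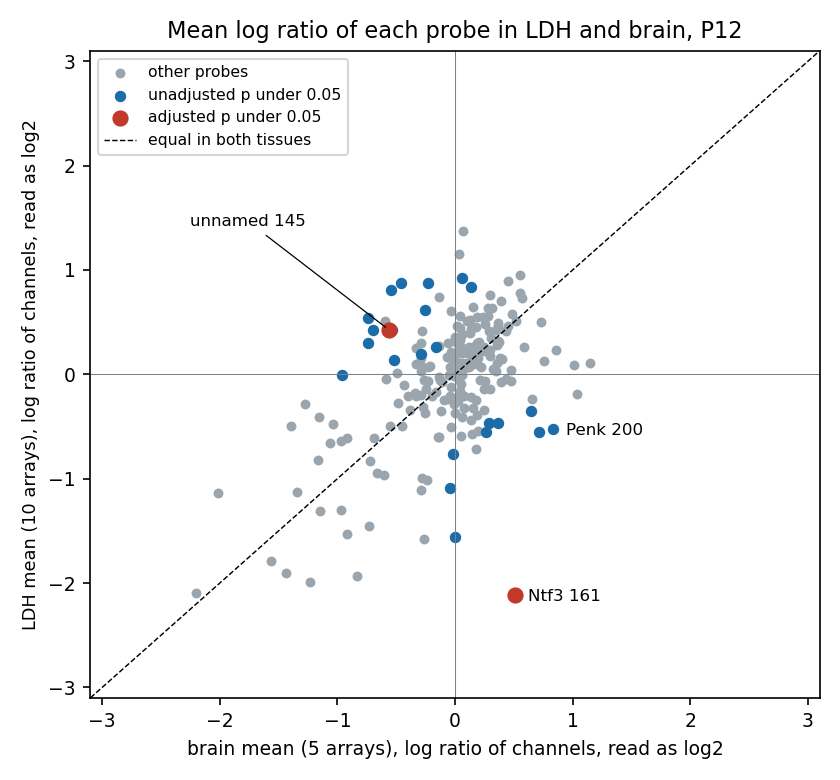
Mean log ratio (read as log2) of each of the 232 probes in brain (x axis, 5 arrays) and LDH (y axis, mean of the left and right group means, 10 arrays); the dashed line marks equal values, blue points an unadjusted p under 0.05 and red points an adjusted p under 0.05. Most points lie near the origin, and Ntf3 sits alone at the lower right with a brain mean of 0.51 and an LDH mean of -2.12.

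Ntf3 had the largest difference between the tissues in size. In left LDH its log ratio was -2.32, -1.94, -2.41, -0.13 and -1.46 on arrays 1 to 5, a mean of -1.65 ± 0.93 (SD, n = 5). In right LDH it was -2.999, -3.04, -1.94, -2.20 and -2.71, a mean of -2.58 ± 0.49 (SD, n = 5). In brain it was -0.23, 1.98, 0.44, 0.38 and 0, a mean of 0.51 ± 0.86 (SD, n = 5). All 10 LDH arrays were negative, whereas 3 brain arrays were positive, 1 was negative and 1 was at exactly 0. LDH left array 4 was the only LDH array within the brain range. The difference was -2.63 with an SE of 0.41 (95% interval -3.50 to -1.76) and an adjusted p of 0.00286 in limma. An exact two-sided permutation test over the 15 arrays gave p = 0.000666, where 0.000333 is the smallest p that the 3003 regroupings can give. It regrouped left LDH, right LDH and brain arrays freely, and so took all 15 as independent, which the labels do not settle. Adjusted over all probes that test gave 0.0773 for Ntf3, a value that its rank made it share with probe 145. A probe at the smallest p, with no other probe near it, would also get 0.0773. The test could therefore not call 1 probe on its own, but Ntf3 was not at that smallest p. The call held when any 1 of the 15 arrays was left out, with differences from -2.82 to -2.26 and adjusted p from 0.000304 to 0.0122. Without LDH left array 4 the difference was -2.82.

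The sides of the cord were also set against brain one at a time, and both comparisons use the same brain arrays. For Ntf3 the left difference was -2.17 (adjusted p = 0.0849 in limma) and the right difference -3.09 (adjusted p = 0.00234). The right side is opposite the injected paw. Left minus right was 0.93 with an unadjusted p of 0.068 in limma, so the sides were not shown to differ.

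The other measured neurotrophin genes gave smaller differences, and 0 of their 6 probes passed the adjusted threshold in limma, with 0 at an unadjusted p under 0.05. Among ligands, Bdnf, which sensitises dorsal horn neurons through TrkB, differed by 0.11 (95% interval -0.20 to 0.42), and Ntf4 by 0.043. Among receptors, Ntrk2, which encodes TrkB, differed by -0.48 (-1.03 to 0.07). The 2 probes of Ntrk3, which encodes TrkC, the main receptor of neurotrophin-3, differed by -0.36 and -0.11. Ngfr, which encodes p75NTR, differed by 0.13. Over all 7 neurotrophin probes the median was -0.11, beside 0.045 over all probes.

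Probe 145 is unnamed here. Its log ratios were 0.63, 0.27, 0.24, -0.015 and 0.58 in left LDH (mean 0.34 ± 0.26, SD, n = 5) and 0.17, 0.78, 0.038, 0.97 and 0.61 in right LDH (mean 0.51 ± 0.40, SD, n = 5). In brain they were -0.41, -1.01, -0.83, 0.10 and -0.66 (mean -0.56 ± 0.43, SD, n = 5). The signs thus differed between the tissues on 9 of 10 LDH arrays, which were positive, and 4 of 5 brain arrays, which were negative, while brain array 4 lay among the LDH values. The difference was 0.99 (SE 0.22, 95% interval 0.52 to 1.45) with an adjusted p of 0.0485 in limma and p = 0.000999 in the exact permutation test. This call was narrow. It was lost in 11 of the 15 fits that left out 1 array, where the difference ran from 0.88 to 1.16 and the adjusted p from 0.00873 to 0.219, and in 7 of 11 other alternatives.

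**Figure D2:**
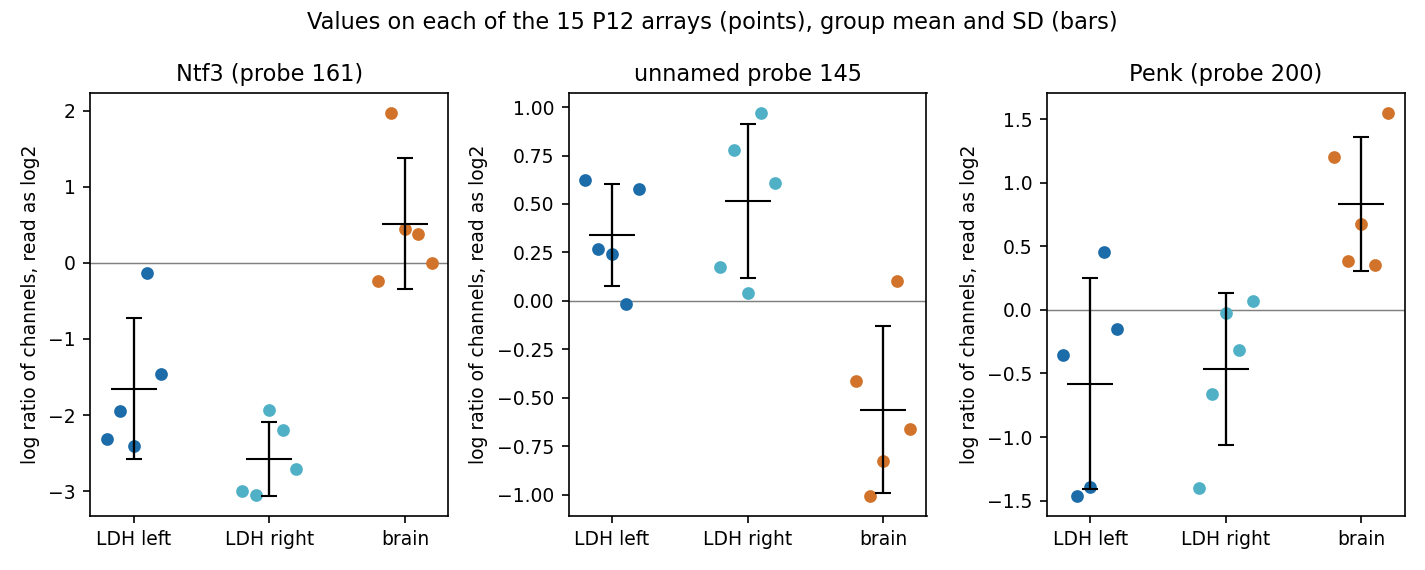
Log ratio (read as log2) on each of the 15 arrays (points) for Ntf3, unnamed probe 145 and Penk probe 200 in left LDH, right LDH and brain, with group mean and SD (bars); each panel has its own y scale. For Ntf3 all 10 LDH points are below 0, and for each of the 3 probes 1 or more arrays keep the tissues from separating fully.

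Of the named probes short of the threshold, that with the smallest p was probe 200 of Penk, the precursor of the enkephalins, opioid peptides made by dorsal horn interneurons. Its left LDH values were -0.36, -1.47, -1.39, 0.46 and -0.15 and its right LDH values -1.40, -0.66, -0.021, -0.32 and 0.072. Its brain values were 1.20, 0.38, 0.67, 0.36 and 1.55, all positive. LDH left array 4 was again the only LDH array within the brain range. Means were -0.58 ± 0.83, -0.47 ± 0.60 and 0.83 ± 0.53 (SD, n = 5 each), and the difference was -1.36 (SE 0.35, 95% interval -2.10 to -0.61; adjusted p = 0.120 in limma, exact permutation p = 0.00266). Without LDH left array 4 the difference was -1.49 and passed with an adjusted p of 0.0359 in limma. The array left out was the LDH array that went most against the difference, so that pass is not support for it. The other Penk probes, listed under the same sequence entry, went the opposite way. Probe 197 differed by 1.12 (95% interval 0.11 to 2.13, adjusted p = 0.413 in limma) and probe 199 by 0.44 (-0.99 to 1.88). Probe 199 ran from 0.16 without LDH right array 2 to 0.88 without LDH right array 1, and robust regression gave 0.78 with an adjusted p of 0.0026 in limma. Averaged over its 3 probes, Penk differed by 0.070. Over the 15 arrays probes 197 and 200 correlated at r = -0.659, as a description, and 199 and 200 at 0.0773. These values therefore give no direction for Penk as a gene.

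Gabbr1, a subunit of the GABA-B receptor, through which GABA damps transmitter release, had 7 probes. Probe 224 was -0.96, -1.41, -0.24, -0.052 and -0.010 in brain, all negative. It was 0.098, 0.51, 1.34, -0.039 and 0.15 in left LDH and 0.65, 0.49, 0.61, 0.25 and 0.16 in right LDH, positive on all but LDH left array 4. The difference was 0.96 (SE 0.27, 95% interval 0.37 to 1.54, adjusted p = 0.194 in limma, exact permutation p = 0.000666). The other 6 Gabbr1 probes differed by -0.37 to 0.39, 3 of them positive and 3 negative.

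Among glutamate receptors, 4 NMDA receptor probes had an unadjusted p under 0.05 in limma, 3 with a positive difference and 1 with a negative one, out of 11 probes, where 10.8% of all 232 probes did. NMDA receptors are the glutamate-gated channels needed for lasting sensitisation in the dorsal horn. Grin2d probe 173 was -1.57, -2.06, -1.25, 0.47 and -0.41 on the brain arrays, while all 10 LDH arrays lay between -0.42 and 0.35. Brain was therefore low on 3 arrays and array 4 lay above every LDH array. The difference was 0.96 (SE 0.32, adjusted p = 0.255 in limma), and without brain array 4 it was 1.32 and passed (adjusted p = 0.00873). Brain array 4 was the array that went most against the difference, so that pass is not support for it. Its second probe, 169, differed by 0.11. Grin1, the obligatory subunit, had 4 probes from 4 sequence entries. Probe 177 averaged 0.39 ± 0.73, 0.20 ± 0.58 and -0.74 ± 0.67 in left LDH, right LDH and brain (SD, n = 5 each) and differed by 1.04 (adjusted p = 0.255 in limma), whereas probes 175, 176 and 178 differed by -1.04, -1.31 and -0.23. Without brain array 5 probe 175 differed by -0.28, and with 1 array left out probe 178 ran from -0.47 (LDH left array 3) to -0.084 (LDH left array 2). Grin3b, a glycine-binding subunit, was positive on 4 of 5 brain arrays and negative on 8 of 10 LDH arrays, a difference of -0.82 (SE 0.27, adjusted p = 0.255 in limma). The 2 probes of Grin3a, of the same subunit class, differed by 0.66 (probe 232) and 0.57 (probe 182), but by 0.30 and 0.0062 without brain array 2. Grin2b, a major forebrain and dorsal horn subunit, differed by 0.32 (95% interval -0.20 to 0.84). In all, 6 of 11 NMDA probes were positive and 5 negative, with a median of 0.11 and 0 calls.

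The other glutamate genes also gave no call. Grm7, a presynaptic metabotropic receptor, differed by 1.28 (95% interval 0.07 to 2.49, adjusted p = 0.413 in limma), and Slc1a1, a neuronal glutamate transporter, by 1.11 (0.05 to 2.16). Of 12 AMPA and kainate receptor probes, 11 were positive and 1 was negative, with a median of 0.25 beside 0.045 over all probes. Not one reached an unadjusted p of 0.05 in limma, and Grik1 probe 86, which had the smallest p among them, differed by 0.44 (-0.20 to 1.09). The 8 metabotropic receptor probes had a median of 0.16. Since the same arrays enter every probe, such counts are a description of these arrays.

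On the inhibitory side, the 14 GABA-A receptor probes split 7 to 7 with a median of 0.051, and Gabra4, with the smallest p of these, differed by -0.61 (95% interval -1.58 to 0.36), from -0.95 without brain array 2 to -0.37 without brain array 4. Gad1 and Gad2, the enzymes that make GABA, differed by 0.10 and -0.016. Slc6a11, a GABA transporter, differed by 0.70 (-0.31 to 1.70). None of these passed the adjusted threshold in limma, and none had an unadjusted p under 0.05.

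For the monoamines, the largest positive difference on the arrays was that of Slc6a2, the noradrenaline transporter, at 1.35 for probe 207 (SE 0.51, 95% interval 0.25 to 2.45, adjusted p = 0.348 in limma). Its 10 LDH arrays were all positive, from 0.021 to 3.95, and 4 of 5 brain arrays were negative. LDH left array 4 gave the 3.95, and without it the difference was 1.00 (adjusted p = 0.0887 in limma). Probe 208 of the same sequence entry differed by -0.48 (-0.29 without LDH left array 3). The 16 serotonin receptor and transporter probes split 8 to 8 with a median of 0.012; Htr3a, a serotonin-gated channel, had the smallest p among them and differed by -0.47 (-1.20 to 0.27; -0.26 without LDH right array 4). The 4 histamine receptor probes were all positive with a median of 0.19, and Hrh1 differed by 0.31 (-0.19 to 0.82). Neither list had a probe at an unadjusted p under 0.05.

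Among neuropeptides and their receptors, Tacr3, the neurokinin B receptor, was negative on 9 of 10 LDH arrays, from -1.68 to 0.037, while brain ran from -0.43 to 0.33. Probe 157 averaged -1.09 ± 0.55 in left LDH, -0.44 ± 0.34 in right LDH and -0.023 ± 0.35 in brain (SD, n = 5 each). The difference was -0.75 (SE 0.24, 95% interval -1.26 to -0.24, adjusted p = 0.255 in limma). Left minus right was -0.64 (unadjusted p = 0.035 in limma), but 0 probes passed adjustment in that comparison, so the sides were not shown to differ. Probe 158 of the same entry differed by 0.35. Nts, which encodes neurotensin, differed by -1.05 for probe 185, by -0.89 for probe 184 (-0.53 without LDH left array 3) and by 0.30 for probe 186. On probe 185, 4 of 5 LDH left and all LDH right arrays were negative. Brain array 2 was negative too, at -0.40, as was the next lowest brain array, at -0.016. Npy5r, a neuropeptide Y receptor, differed by 0.48 (0.12 to 0.85, adjusted p = 0.263 in limma), and Npy itself by -0.93 (-2.13 to 0.28). The Npy value rested on brain array 5, at 3.94, without which it was -0.19. Pomc, the precursor of beta-endorphin, had 4 probes under 1 entry, which differed by 0.87 (probe 195), -0.08, -0.42 and -0.54 (-0.32 without brain array 1). The somatostatin receptors Sstr1 and Sstr3 differed by 1.33 (probe 216; 0.029 for probe 1) and 0.42, and Sst, the peptide, by -0.047.

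Among cytokine genes, Il4, an anti-inflammatory interleukin, differed by -0.998 for probe 133 (95% interval -1.88 to -0.11, adjusted p = 0.413 in limma) and by 0.032 and -0.24 for probes 57 and 109. Il2rg, the shared chain of several interleukin receptors, differed by -0.83 (-1.62 to -0.04), with LDH left array 3 at -2.64, and Il12a, a subunit of interleukin-12, by 0.70 (0.01 to 1.38). The pro-inflammatory Il1b and Il6 differed by 0.11 (-0.36 to 0.59) and -0.024 (-0.58 to 0.53). Of 22 interleukin probes 12 were positive, and of 16 interleukin receptor probes 7 were, with medians of 0.064 and -0.078. Cxcr2, a chemokine receptor, differed by 0.30 for probe 114.

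**Figure D3:**
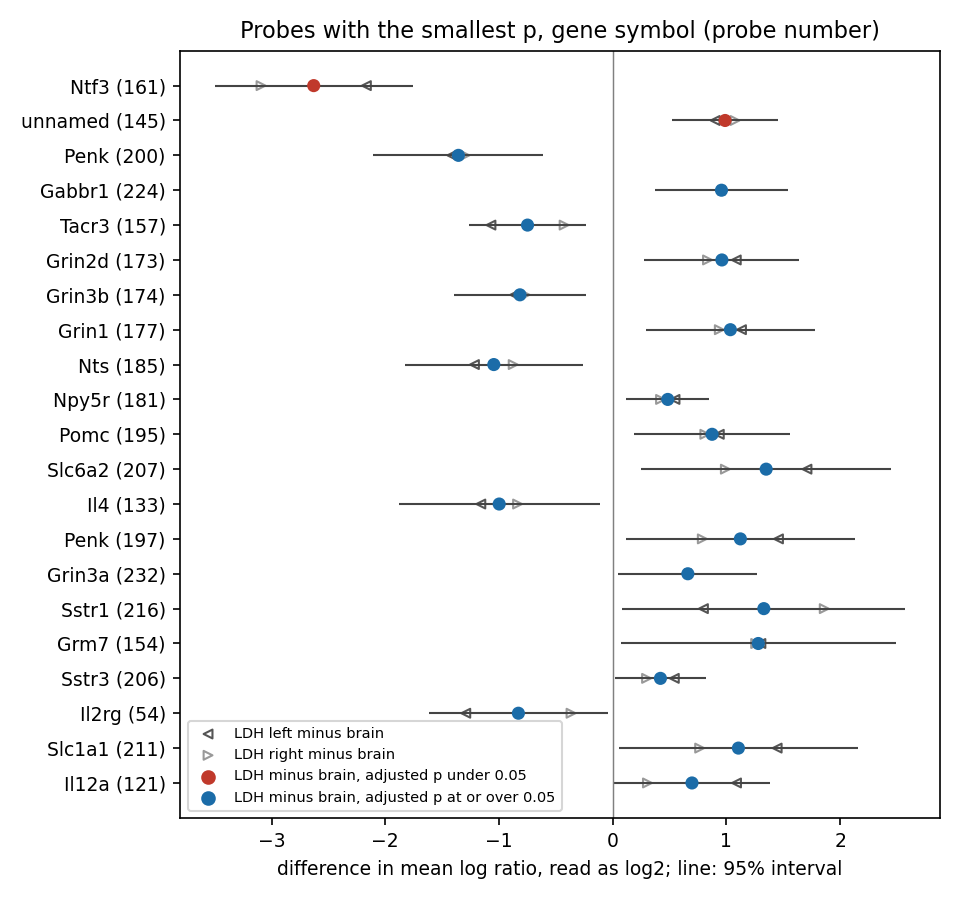
Difference in mean log ratio (LDH minus brain, read as log2) with its 95% interval for unnamed probe 145 and the 20 named probes with the smallest p; open triangles show left and right LDH minus the same brain arrays. Ntf3 has the largest difference in size, and the red points, Ntf3 and probe 145, are those with an adjusted p under 0.05.

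A panel of genes best known from spinal pain transmission was read in full. Of its 19 genes, 15 were on the arrays with 31 probes, of which 16 differences were positive and 15 negative, with a median of 0.0059. In limma 0 passed, and 4 of 31 had an unadjusted p under 0.05, beside 10.8% of all probes. These were 3 positive and 1 negative, all named above. Of the opioid receptors, Oprm1 (mu) differed by 0.34 (95% interval -0.47 to 1.14), Oprd1 (delta) by -0.17 (-0.52 to 0.18) and Oprk1 (kappa) by -0.62 (-1.53 to 0.29; -0.32 without brain array 3). Pdyn, the dynorphin precursor, differed by 0.34 (-0.24 to 0.91). The 3 probes of Calca, the CGRP gene, differed by 0.12 to 0.19. The 4 probes of Tac1, the substance P precursor, differed by -0.74 (probe 56; -1.50 to 0.02), -0.32, -0.27 and 0.0059. For Calca the probes lay within 0.067 of each other, and for Tac1 they spanned 0.74.

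**Figure D4:**
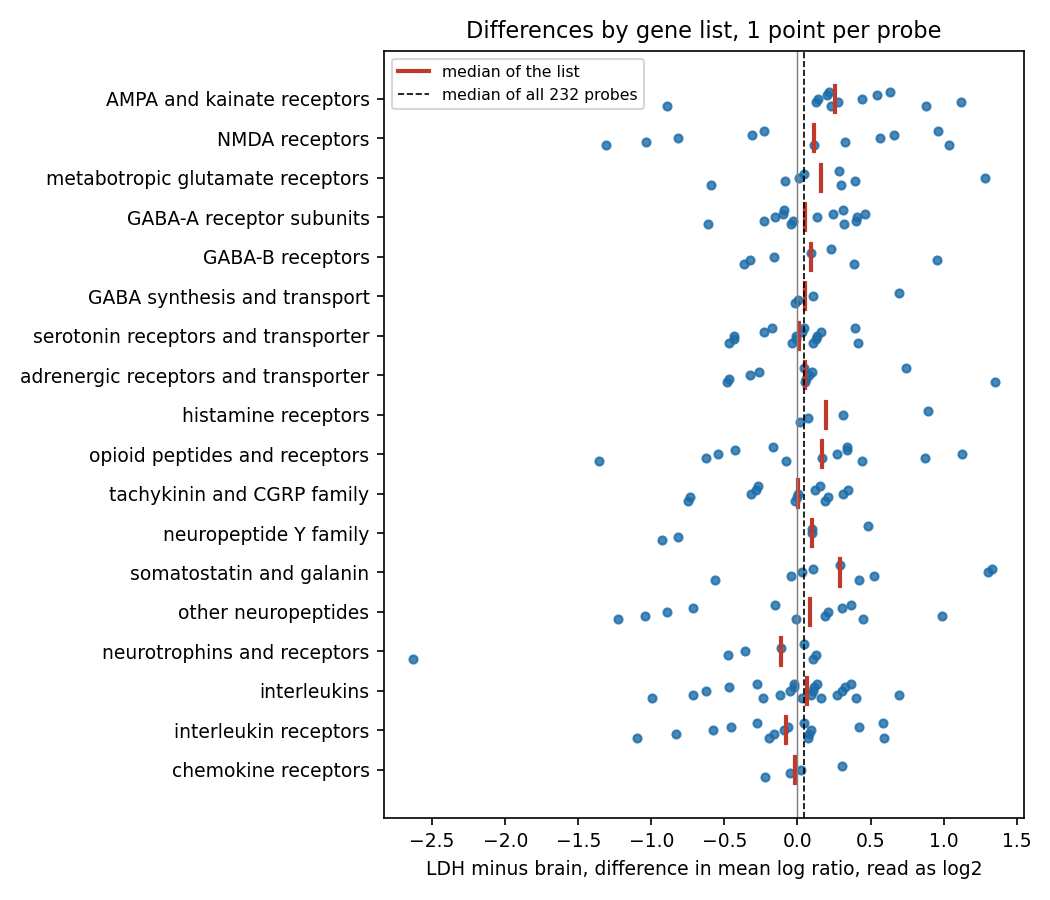
Difference in mean log ratio (LDH minus brain, read as log2) of every probe in each gene list with 3 or more probes; red bars are list medians and the dashed line the median of all 232 probes, 0.045. List medians lie between -0.11 (neurotrophins) and 0.29 (somatostatin receptors and peptide), and the neurotrophin list holds the single point beyond -2.

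Several genes were measured by more than 1 probe, and the probes often disagreed. Of 30 such genes (77 probes), 17 had differences of both signs, and the span between the probes of a gene had a median of 0.63 and reached 2.48 for Penk. Of 42 pairs of probes listed under 1 sequence entry, 20 had differences of the same sign, and over the 15 arrays such pairs correlated at a median r of 0.0812, from -0.659 to 0.906. Probes of an entry were thus read one by one, and the call for Ntf3 rests on 1 probe with no second probe to compare.

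**Figure D5:**
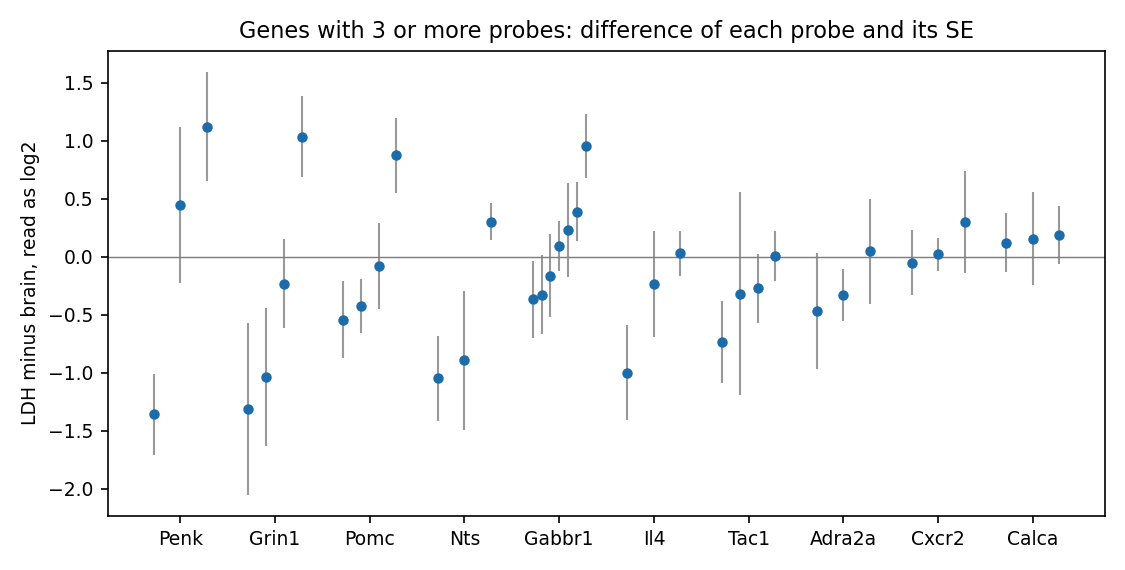
Difference in mean log ratio (LDH minus brain, read as log2) with its SE for every probe of the 10 genes that had 3 or more probes. The probes of Penk span 2.48 log units and those of Grin1 2.35, on both sides of 0, whereas those of Calca span 0.067.

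Over all probes, left LDH minus brain gave 0 calls in limma (0%), with 23 probes at an unadjusted p under 0.05 (9.91%), and right LDH minus brain gave 1 call (0.431%), Ntf3, with 19 at an unadjusted p under 0.05 (8.19%). Left and right LDH were set against each other directly, which gave 0 calls in limma and 19 probes at an unadjusted p under 0.05. Left minus brain gained calls without 1 array, namely 3 without brain array 4 (probe 145, Grin2d probe 173 and an unnamed probe, 65) and 1, Ntf3, without LDH left array 4. Right minus brain had 2 calls without brain array 4 (with probe 145) or without LDH right array 5 (with an unnamed probe, 203).

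The same contrast in rats injected on postnatal day 3 (P3) was read beside it. It came from another platform and a separate table of 222 probes, so no test was made between the ages. P3 arrays that correlated with each other at r over 0.6 were averaged, which left 16 samples. The averaged arrays were LDH left 5 and 6 (r = 0.969) and LDH right 1 and 2 (r = 0.806). In limma 0 of 222 P3 probes passed (0%) and 10 had an unadjusted p under 0.05 (4.5%). Without the averaged pair of P3 LDH right arrays 1 and 2 there was 1 call. Ntf3, listed under the same sequence entry, averaged 0.046 ± 0.22 in left LDH (SD, n = 5), -0.065 ± 0.15 in right LDH (SD, n = 5) and 0.17 ± 0.25 in brain (SD, n = 6). The difference was -0.18 (95% interval -0.43 to 0.07, adjusted p = 0.827 in limma). The 3 P3 probes of Penk differed by -0.56, -0.79 and -0.070, all short of the adjusted threshold.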

How the data were processed

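Per the labels' protocols, TRIzol-extracted total RNA (5 µg of each sample) was copied to cDNA with capture primers that differed between control and treated tissue, then hybridised to custom-printed oligonucleotide arrays. The authors deposited 1 signed log ratio per probe and array, read here as log2. The sources used here do not give how spots were scanned, corrected for background or normalised. The largest value, 5.66, is a ratio of 50.6 in base 2 or 288 in the natural base. Exact zeros made up 2.84% of values. Probe names came from the platform annotation, and for 195 of the 205 named probes the Entrez identifier was found in the rat gene table. Spot signals were not used here, and the precision given is that of 5 arrays a group. Group means were fitted without a block over the 15 arrays with limma 3.58.1 in R 4.3.3 (lmFit, eBayes, two-sided), and the scripts were tested on simulated data. The members and gene lists were chosen with earlier results of these data known. Named were called probes, the 20 named probes with the smallest p, other probes of those genes, the pain-related panel and the probe with the smallest p in each list of 3 or more probes. Outside this rule, Ntf4, Ngfr, Ntrk2, Ntrk3, Gad1, Gad2 and unnamed probes 65 and 203 were added after their values were seen. Alternatives covered the block, averaging of probes, centring, scaling, robust fits, array weights, an exact permutation test, zeros, a filter and left-out arrays.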

Additional observations from a re-analysis of the deposited data

Results flagged for a closer look

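Ntf3 (probe 161) and unnamed probe 145 differed between LDH and brain in a direct test, by -2.63 and 0.99. Of 198 groups of 5 arrays checked among the named probes, 17 held an array far from the other 4 by Dixon's criterion, which by chance would mark about 5 percent of groups. In left LDH these were array 3 for Il2rg probe 54 (-2.64), Il4 probe 133 (-2.38), Nts probe 184 (-3.63) and Slc6a2 probe 208 (-1.52), array 4 for Slc6a2 probe 207 (3.95) and array 5 for Grin2b (0.46). In right LDH they were array 3 for Tac1 probe 79 (5.62), array 4 for Gabbr1 probe 76 (-0.66) and array 2 for Nts probe 184 (-1.37). In brain they were array 5 for Npy (3.94), Grin2b (-1.11), Grin1 probe 176 (-1.98) and Calca probe 196 (2.05), array 2 for Nts probe 185 (-0.40) and Sstr3 (-0.68), array 3 for Tac1 probe 56 (-0.28) and array 1 for Penk probe 199 (0.28). Brain array 5 and LDH left array 3 each gave 4 of the 17, and brain array 4 gave 0.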

How the results depend on the processing

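The difference of Ntf3 kept its sign under every alternative, from -2.76 to -2.50 with all 15 arrays and -2.91 without LDH left arrays 4 and 5. Its adjusted p was 0.0773 in the exact permutation test, the same as for probe 145 and Gabbr1 probe 224. That test thus did not call Ntf3. In the others its adjusted p was 0.00029 to 0.0110, with 0.0110 under the replicate block. The count of 2 calls for LDH minus brain became 1 with the replicate block, with arrays centred on their median, with estimated array weights, with robust eBayes and with probes of median absolute log ratio under 0.1 left out (219 tested). It was 2 with probes of a symbol averaged, with arrays scaled (Ntf3 and Penk probe 200) and with zeros missing, 19 with robust regression (beside Ntf3 and probe 145, Penk probes 199 and 200, Grin2d probe 173, Slc6a2 probe 207, Gabbr1 probe 224, Grm7, Nts probes 184 and 185, Il4 probe 133 and Il2rg among the probes named by the rule), 0 in the exact permutation test, and 5 without LDH left arrays 4 and 5. Leaving out 1 array gave 1 to 3 calls for LDH minus brain, 0 to 3 for left minus brain, 1 to 2 for right minus brain and 0 to 1 for P3. For P3 an averaged pair was left out as 1 sample. Replicate numbers were not taken as pairs. With group means removed, same-numbered arrays of different groups correlated at r = -0.0928 to 0.161 over 15 pairs. Among the arrays of the other groups, 5 of 15 arrays correlated best with their own number. How many would do so by chance was not computed.

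Of 66 named differences, 45 never changed sign. Averaging the probes of a symbol turned Tac1 probe 27 (-0.33), Gabbr1 probes 35, 37 and 76 (0.12), Il4 probe 57 (-0.40), Tacr3 probe 158 (-0.20), Grin1 probe 177 (-0.39), Nts probe 186 (-0.54), Pomc probe 195 (-0.043), Penk probe 200 (0.070) and Slc6a2 probe 208 (0.43), because probes of these genes had opposite signs. Scaling turned Gabbr1 probes 35 (0.098) and 37 (0.72), Il4 probe 57 (-0.023), Il1b (-0.015), Il6 (0.048) and Sst (0.17). Robust regression turned Pomc probe 194 (0.090). Array weights turned Tac1 probe 27 (-0.012), Il4 probe 57 (-0.012), Il6 (0.011), Pomc probe 194 (0.00119) and Sst (0.045). Leaving out LDH left arrays 4 and 5 turned Tac1 probe 27 (-0.00557), Grin2d probe 169 (-0.041), Pomc probe 194 (0.00483) and Calca probe 196 (-0.060). With 1 array left out, signs turned for Sst (-0.15 to 0.11), Sstr1 probe 1 (-0.018 to 0.087), Il4 probes 57 (-0.058 to 0.15) and 109 (-0.46 to 0.045), Gabbr1 probe 34 (-0.033 to 0.16), Il6 (-0.12 to 0.079), Tac1 probe 27 (-0.068 to 0.12), Cxcr2 probe 114 (-0.15 to 0.54), Pomc probe 194 (-0.31 to 0.25) and Il1b (-0.00145 to 0.22). Except for averaging, the cause was not tested.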
